A study of Homo sapiens with 8 samples.

Results

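The genes described here build ribosomes: 45 genes listed for their roles in transcription by RNA polymerase I, in the modification and cleavage of ribosomal RNA, and in assembly of the small and large subunits. Membership came from gene function and used no measured value, although the list was drawn up with earlier results of these data known. Of the 45, 39 had a probe set of their own among 17958 genes measured on the arrays. The other 6 were not analysed: NOP56, PPAN and MYBBP1A had 1 probe set each and TSR1 had 2, all shared with other symbols, and DDX18 and GNL3 had 0 listed.

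Total RNA of cultured lymphoma cells was hybridised to 8 whole-transcript arrays, 1 sample per array. KMH2, a Hodgkin lymphoma line, was measured as 3 untreated control arrays and 3 arrays after 24 h of glucosamine, an amino sugar that cells phosphorylate and feed into the hexosamine pathway. Ramos, a Burkitt lymphoma line, was measured on 2 arrays. All cells shared RPMI medium with heat-inactivated serum and carried no stated genetic change, and each line is a single long-cultured tumour line. The sources used here do not give the glucosamine dose. The sample labels call both Ramos arrays control, whereas the series' design has 1 Ramos sample taken after glucosamine, so neither was given a treatment here and Ramos is described by cell line and replicate number. The design text calls the KMH2 replicates biological. For Ramos this was not stated, so the difference between its 2 arrays may be technical or may hold a treatment. The Ramos p-values use a spread shared by all 8 arrays, 6 of them KMH2. For the genes described here the median SD was 0.367 between the Ramos arrays, against 0.0470 in KMH2 control and 0.0410 after glucosamine. Where the Ramos arrays differ more than the KMH2 arrays, the SE and p-value for Ramos can therefore understate the uncertainty.

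The median probe set read 5.62 to 5.68 on each array on the log2 scale, and the upper quartile 7.75 to 7.83. The line labels were checked on marker genes. All 5 measured B-cell markers were higher in Ramos, among them CD79A at 11.79 against 5.75 in KMH2 control and MS4A1 at 10.94 against 3.70. Of 6 Hodgkin tumour-cell markers, 5 were lower in Ramos, among them IRF4 at 6.09 against 11.14. Of 6 T and NK-cell markers 3 were lower and 2 higher in Ramos, and of 5 measured myeloid markers 2 were lower and 2 higher. After glucosamine 4 of the 6 Hodgkin markers fell and 1 rose, and 1 of the 5 B-cell markers fell. Of the T and NK-cell markers 1 of 6 fell (CD4, -0.28, limma adjusted p = 0.0061) and 0 rose, and of the myeloid markers 1 of 5 fell (CD14, -1.08, 0.00102) and 1 rose (CSF1R, 0.54, 0.00117). The part of all these markers in the results below was not tested.

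Ribosome production starts in the nucleolus, where RNA polymerase I, guided by the factors UBTF and RRN3, transcribes one long precursor of most ribosomal RNA. Small nucleolar ribonucleoproteins of the box C/D and box H/ACA classes methylate and pseudouridylate the precursor, while a large particle called the small subunit processome folds and cleaves it. Separate sets of factors then finish the small and the large subunit. Growing lymphoma cells make ribosomes at a high rate, and many genes of this pathway are known targets of the transcription factor MYC, which binds the E-box hexamer CACGTG.

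The promoters are shown because that E-box was frequent among these genes. It was the only motif searched, and because CACGTG reads the same on both strands 1 search covered both. Windows of 300 bases, from 250 before to 50 after the annotated start, came from RefSeq on GRCh38.p14 and were found for 37 of the 45 genes. The hexamer stood in the windows of 17 of these 37 genes (45.9%), in 33 of 113 other genes of the pathway (29.2%) and in 8.77% of 27305 genes of the table. By window the shares were 37.8% of 45, 26.1% of 134 and 7.26% of 35116. A match is a description of letters in a window, and no binding was measured. The 4 printed first are the steepest fallers after glucosamine among some of the 39 measured genes. Those are the genes with a single annotated window and the hexamer between 100 bases before and 30 after the start. UTP20 lies at chr12:101280005-101280134 on the plus strand with its hexamer 10 bases before the start, and NAT10 at chr11:34105529-34105658 on the plus strand with the hexamer 15 bases before. MRTO4 lies at chr1:19251705-19251834 on the plus strand with the hexamer 14 bases after the start, and RRP9 at chr3:51941875-51942004 on the minus strand with the hexamer 5 bases before. NOB1 lies at chr16:69754897-69755026 on the minus strand and RIOK1 at chr6:7389708-7389837 on the plus strand. They are printed as the genes with a single window that rose, and neither holds the hexamer. DDX21, which also rose, holds the hexamer but has more than a single window and is not printed. The printed set is therefore no comparison of fallers with risers. Each sequence runs 5′ to 3′ along the gene's strand, from 100 bases before to 30 after the start, with CACGTG in capitals.
UTP20: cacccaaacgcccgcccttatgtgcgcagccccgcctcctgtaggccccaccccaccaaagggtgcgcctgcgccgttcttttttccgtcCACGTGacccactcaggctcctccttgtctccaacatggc
NAT10: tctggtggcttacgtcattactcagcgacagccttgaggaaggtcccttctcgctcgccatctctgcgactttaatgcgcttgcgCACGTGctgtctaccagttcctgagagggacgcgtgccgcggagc
MRTO4: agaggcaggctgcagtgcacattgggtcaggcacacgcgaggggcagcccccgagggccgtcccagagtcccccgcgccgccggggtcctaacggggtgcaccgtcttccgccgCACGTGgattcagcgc
RRP9: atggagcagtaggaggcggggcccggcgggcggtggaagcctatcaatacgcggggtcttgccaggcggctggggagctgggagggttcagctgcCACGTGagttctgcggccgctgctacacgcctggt
NOB1: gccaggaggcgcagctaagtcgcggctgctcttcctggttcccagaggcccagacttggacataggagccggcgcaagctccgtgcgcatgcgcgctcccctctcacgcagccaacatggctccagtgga
RIOK1: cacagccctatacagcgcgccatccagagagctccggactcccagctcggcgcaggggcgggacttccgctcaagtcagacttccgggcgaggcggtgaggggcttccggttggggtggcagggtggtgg

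After glucosamine the ribosome assembly and RNA polymerase I genes were mostly lower in KMH2. With limma over all genes (adjusted p under 0.05), 20 of the 39 measured genes fell (51.3%), against 14.1% of all genes measured. Another 3 rose, against 12.0% of all genes, and 16 did not pass the test. The median difference, glucosamine minus control, was -0.16 on the log2 scale for the 39 genes and 0.01 for all genes. The 3 glucosamine arrays lay below all 3 control arrays for 27 of the 39, against 20.8% of all genes, and above them for 5, against 20.3%. Differences ran from -1.05 for UTP20 to 0.37 for NOB1. In bulk RNA, fewer cells expressing a gene and less of its RNA per cell cannot be told apart.

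**Figure D1:**
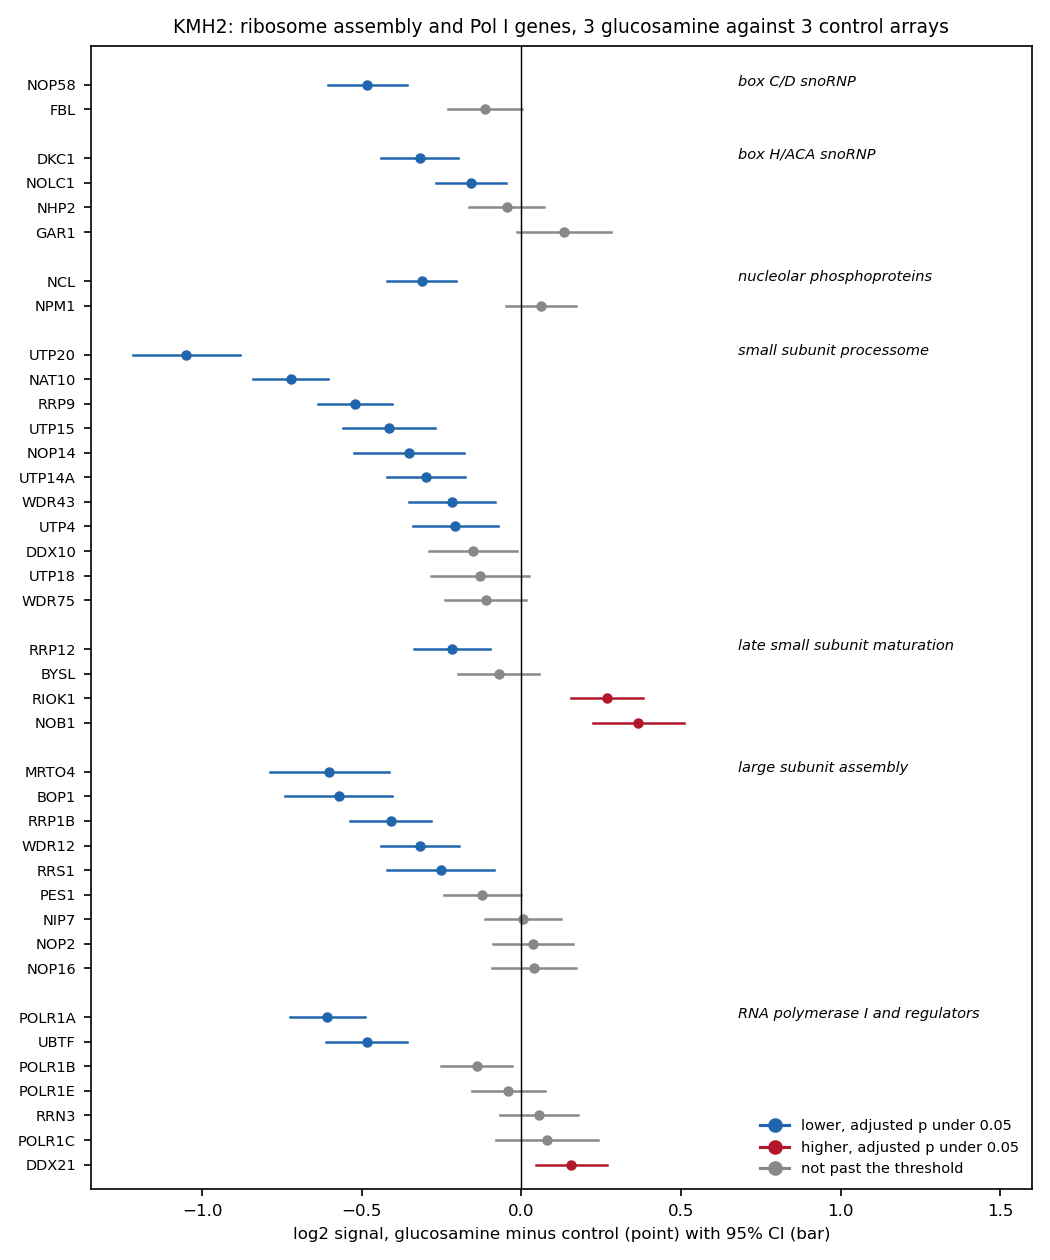
Difference in log2 signal, glucosamine minus KMH2 control, for each of the 39 measured genes grouped by role, with 95% confidence intervals from limma (n = 3 arrays per group). Coloured points passed the test, 20 lower and 3 higher, and all 11 small subunit processome genes lie below 0.

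The median of the 39 genes, taken relative to the control mean of each gene, was -0.17, -0.15 and -0.17 on the glucosamine arrays and 0.02, -0.01 and -0.01 on the control arrays. Between any 2 arrays of the same KMH2 group 0 of the 39 differed by 1.5-fold or more. The median SD of the 39 genes was 0.0470 in control and 0.0410 in glucosamine, and 0.367 between the Ramos arrays. When all 8 arrays shared 1 estimate of spread, 3 of the genes fell (6.24% of all genes did) and 1 rose (5.27% of all genes did). Those were UTP20 (limma adjusted p = 0.0168), NOP14 (0.0473) and UBTF (0.0467) downward and NOB1 (0.0432) upward.

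The small subunit processome held the steepest fall. Of its 11 genes, 8 fell, 0 rose and 3 did not pass, and all 11 had every glucosamine array below every control array. UTP20 (probe set 7957890), a very large scaffold protein needed for early cleavage of the precursor, read 9.09, 9.16 and 9.14 on the control arrays and 7.93, 8.17 and 8.15 after glucosamine. It fell 2.07-fold, a difference of -1.05 ± 0.07 (SE; limma adjusted p = 7.65e-05), the lowest of the 39, with a wide gap between the groups. NAT10 (7939265), the acetyltransferase that modifies cytosines of 18S ribosomal RNA, stood between 9.88 and 9.89 on every control array and at 9.22, 9.15 and 9.12 after glucosamine. Its fall was 1.65-fold (-0.72 ± 0.05, adjusted p = 8.27e-05). RRP9 (8087790), a protein of the U3 particle within the processome, read 8.79, 8.82 and 8.75 in control and 8.30, 8.25 and 8.24 after glucosamine. This was a 1.44-fold fall (-0.52 ± 0.05, adjusted p = 0.000271), and again the groups did not overlap.

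The other processome genes that fell did so by smaller steps. UTP15, which helps recruit the processome to the nascent precursor, read 8.84, 8.74 and 8.79 in control and 8.27, 8.43 and 8.42 after glucosamine, a 1.33-fold fall (-0.41 ± 0.06, limma adjusted p = 0.00196). NOP14, a partner of the assembling small subunit, fell by 0.35 ± 0.08 (adjusted p = 0.00997), from 9.90, 9.77 and 9.83 to 9.34, 9.53 and 9.58. UTP14A, which binds the helicase that releases U3, fell by 0.30 ± 0.05 (adjusted p = 0.00412). UTP4 and WDR43 work in the same early complex as UTP15, and fell by 0.21 ± 0.06 (adjusted p = 0.0328) and 0.22 ± 0.06 (adjusted p = 0.0274). Both calls lay near the threshold and were also lost when all probe sets were tested (adjusted p = 0.0596 and 0.0516). UTP4 lost its call without control replicate 1 or 2 (adjusted p = 0.098 and 0.118) or without any 1 glucosamine array (0.0588 to 0.0762). WDR43 lost it without control replicate 1 or 3 (0.0884 each) or glucosamine replicate 2 or 3 (0.0639 and 0.0986). WDR75, UTP18 and the helicase DDX10 did not pass, with differences of -0.11 (adjusted p = 0.192), -0.13 (0.212) and -0.15 (0.105).

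Late small subunit factors went in both directions. NOB1 (8002312), the endonuclease that makes the final cut of 18S ribosomal RNA in the cytoplasm, read 10.69, 10.64 and 10.55 in control and 11.06, 10.93 and 11.00 after glucosamine, a rise of 0.37 ± 0.06 (limma adjusted p = 0.00341). RIOK1 (8116760), a kinase that releases factors from the late small subunit, read 9.94, 9.93 and 9.99 in control and 10.23, 10.20 and 10.24 after glucosamine, a rise of 0.27 ± 0.05 (adjusted p = 0.00479). Both genes had all glucosamine arrays above all control arrays. RRP12, which serves nuclear export of the small subunit, fell by 0.22 ± 0.05 (adjusted p = 0.0169). Its call was lost without control replicate 2 (0.073) or 3 (0.0511) or glucosamine replicate 2 (0.056). BYSL, an adaptor of the nuclear pre-small subunit, did not pass at -0.07 (adjusted p = 0.408).

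Among 9 measured large subunit assembly genes 5 fell and 0 rose. MRTO4 (7898549), a placeholder for the ribosomal stalk protein, read 8.85, 8.69 and 8.77 in control and 8.32, 8.14 and 8.05 after glucosamine, a 1.52-fold fall (-0.60 ± 0.08, limma adjusted p = 0.00116). BOP1 (8153678), which forms the PeBoW complex with PES1 and WDR12, read 9.17, 9.20 and 9.05 in control and 8.64, 8.44 and 8.62 after glucosamine, a 1.49-fold fall (-0.57 ± 0.07, adjusted p = 0.000894). A further BOP1 probe set gave -0.65 (adjusted p = 0.000250). Of its partners, WDR12 fell by 0.32 ± 0.05 (adjusted p = 0.00318), and PES1 did not pass at -0.12 (0.135). RRP1B, a nucleolar protein of pre-large subunits, fell by 0.41 ± 0.06 (adjusted p = 0.00117). RRS1, which helps insert the small RNA of the large subunit's central protuberance, fell by 0.25 ± 0.07 (adjusted p = 0.0363), but not without control replicate 1 (0.111) or 2 (0.12) or glucosamine replicate 2 (0.067) or 3 (0.121).

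The remaining large subunit genes did not pass. The ribosomal RNA methyltransferase NOP2 differed by 0.04 with a 95% interval of -0.09 to 0.16, NOP16 by 0.04 (-0.09 to 0.17) and NIP7 by 0.00 (-0.12 to 0.12), and in all 3 the arrays of the groups overlapped.

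Within RNA polymerase I, the largest subunit and the factor UBTF fell, and no measured subunit rose. POLR1A (8053496), the largest catalytic subunit, read 8.76, 8.82 and 8.73 in control and 8.15, 8.17 and 8.17 after glucosamine, a 1.52-fold fall (-0.61 ± 0.05, limma adjusted p = 0.000147). UBTF (8015969), the upstream binding factor that keeps ribosomal genes open, read 9.28, 9.16 and 9.19 in control and 8.74, 8.74 and 8.69 after glucosamine, a 1.40-fold fall (-0.48 ± 0.05, adjusted p = 0.000545). Neither gene's groups overlapped. POLR1B, the other large catalytic subunit, had all glucosamine arrays below control but did not pass (-0.14, 95% interval -0.25 to -0.03, adjusted p = 0.0712). POLR1C, shared with RNA polymerase III, differed by 0.08 (-0.08 to 0.24), POLR1E by -0.04 (-0.16 to 0.07) and the initiation factor RRN3 by 0.06 (-0.07 to 0.18). DDX21, a helicase of the nucleolus, rose by 0.16 ± 0.05 (adjusted p = 0.0457), and its call was lost without any 1 of the 6 KMH2 arrays (adjusted p = 0.0753 to 0.125) and with a replicate block (0.0658).

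**Figure D2:**
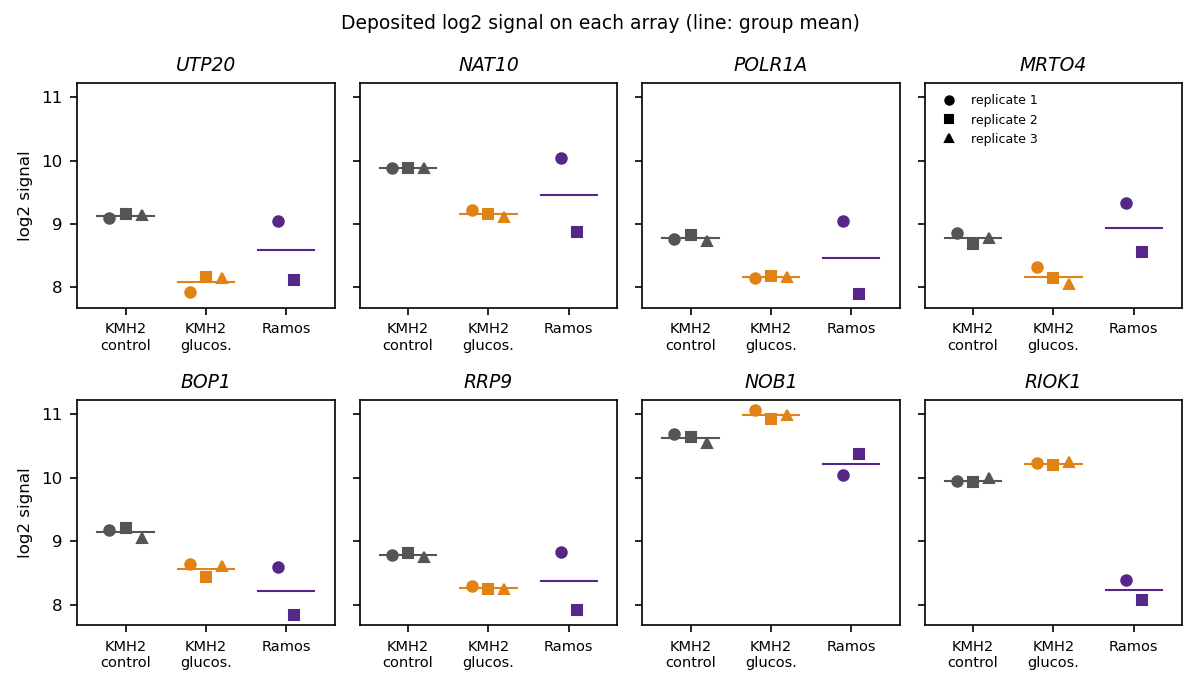
Deposited log2 signal on each of the 8 arrays (points, shaped by replicate number) for UTP20, NAT10, POLR1A, MRTO4, BOP1, RRP9, NOB1 and RIOK1 in KMH2 control, KMH2 glucosamine and Ramos, with group means as lines. The first 6 genes fell and the last 2 rose after glucosamine with no overlap of the KMH2 groups, while the Ramos points for UTP20 stand apart at 9.05 and 8.12.

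The small nucleolar ribonucleoprotein genes were mixed. NOP58 (8047518), the scaffold of the box C/D class, read 10.07, 10.02 and 10.14 in control and 9.61, 9.58 and 9.58 after glucosamine, a 1.40-fold fall (-0.48 ± 0.05, limma adjusted p = 0.000487). FBL, the methyltransferase of the same particle, did not pass at -0.11 (-0.23 to 0.00, adjusted p = 0.145). In the box H/ACA class the pseudouridine synthase DKC1 read 9.72, 9.71 and 9.70 in control and 9.43, 9.41 and 9.33 after glucosamine, a 1.25-fold fall (-0.32 ± 0.05, adjusted p = 0.00298). Its partners NHP2 (-0.05, adjusted p = 0.579) and GAR1 (0.13, adjusted p = 0.179) did not pass. NOLC1, a chaperone of these particles, fell by 0.16 ± 0.05 (adjusted p = 0.0431), a call lost without any 1 of the 6 KMH2 arrays (0.0696 to 0.119) and with a replicate block (0.0635). Of the abundant nucleolar phosphoproteins, nucleolin (NCL) read 11.16, 11.18 and 11.19 in control and 10.86, 10.88 and 10.86 after glucosamine, a 1.24-fold fall (-0.31 ± 0.05, adjusted p = 0.00202). Nucleophosmin (NPM1) did not pass at 0.06 (-0.05 to 0.17, adjusted p = 0.41).

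Among 120 measured other genes of the pathway, 45 fell (37.5%), 7 rose and 68 did not pass (limma), with a median difference of -0.15. For comparison, 14.1% of all genes fell and 12.0% rose. Of 37 further small subunit genes 17 fell and 0 rose, with a median of -0.16; EMG1, a ribosomal RNA methyltransferase, fell most among them (-0.57 ± 0.09, adjusted p = 0.00249). Of 42 further large subunit genes 17 fell and 5 rose. NOL8 fell by 0.65 ± 0.07 (adjusted p = 0.000360) and RSL24D1, a placeholder for a ribosomal protein of the large subunit, rose by 0.67 ± 0.06 (adjusted p = 0.000158). The count of 5 went to 3 without any 1 control array or without glucosamine replicate 2 or 3. Of 8 other snoRNP assembly genes 4 fell and 1 rose (2 without control replicate 3); the ATPase RUVBL1 fell by 0.67 ± 0.05 (adjusted p = 8.53e-05) and SHQ1, a chaperone of dyskerin, rose by 0.30 ± 0.05 (adjusted p = 0.00381). Of 11 genes of the RNA exosome, which trims precursor ends, 4 fell and 0 rose, led by EXOSC9 (-0.57 ± 0.08, adjusted p = 0.00134).

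Among polymerase genes outside the 39, 22.2% of the RNA polymerase I list and 7.69% of the RNA polymerase III list fell. Of all genes 14.1% fell and 12.0% rose. Of 9 other RNA polymerase I genes 2 fell and 0 rose, led by POLR1G (-0.47 ± 0.06, limma adjusted p = 0.000708), and the count was 1 without any 1 of the 6 KMH2 arrays. Of 13 genes of RNA polymerase III, which makes the smallest ribosomal RNA and transfer RNA, 1 fell (POLR3G, -0.24 ± 0.05, adjusted p = 0.0112) and 1 rose (POLR3D, 0.61 ± 0.06, adjusted p = 0.000298), with a median of -0.03. Without glucosamine replicate 1, 3 polymerase III genes rose. When all 8 arrays shared the spread, 1 of the 37 further small subunit genes and 2 of the 42 large subunit genes fell. So did 1 of the 8 snoRNP assembly genes and 0 genes of the exosome and both polymerase lists. In that fit 6.24% of all genes fell. The difference in share between these lists was not tested.

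**Figure D3:**
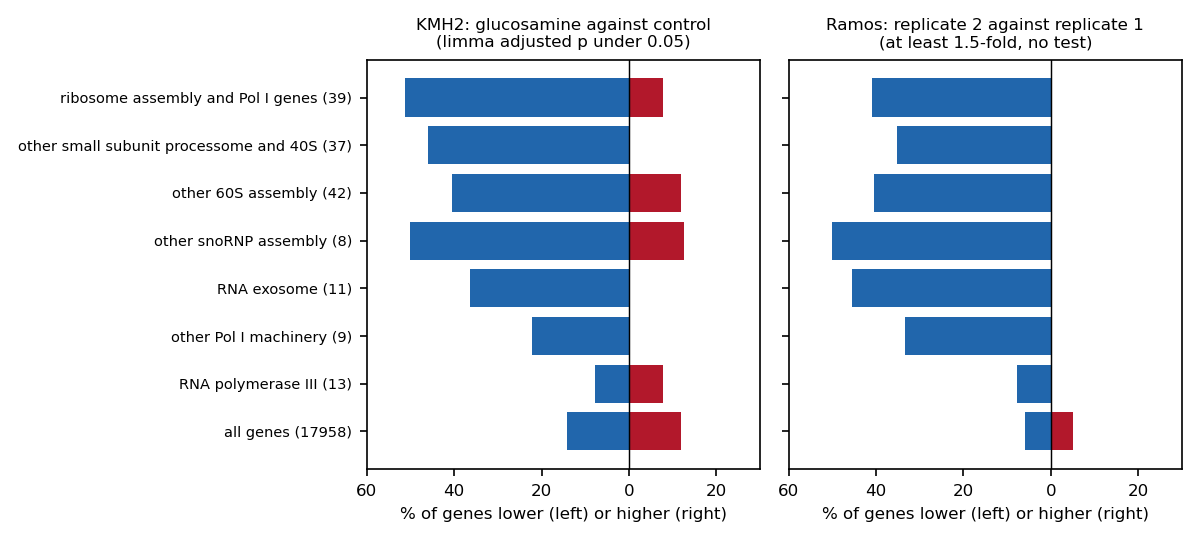
Percent of measured genes lower (bars to the left) and higher (bars to the right) for the ribosome assembly and Pol I genes, each other list of the pathway and all genes, with the number measured in brackets. On the left are limma calls after glucosamine, with 51.3% of the 39 genes and 14.1% of all genes lower, and on the right differences of at least 1.5-fold between the Ramos arrays, with 41.0% and 5.98% lower on replicate 2.

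Ramos was set against KMH2 control to compare the lines. Of the 39 genes, 11 were lower in Ramos (21.6% of all genes were), 3 were higher (22.6% of all genes were) and 25 did not pass, by limma with all 8 arrays sharing the spread. The median difference was -0.17 against 0.06 for all genes. Both Ramos arrays lay below all 3 control arrays for 14 genes, against 26.6% of all genes, and above them for 9, against 37.7%. This comparison shares its control arrays with the glucosamine comparison.

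The steepest differences between the lines were those of RIOK1, NIP7, RRP12 and POLR1C. RIOK1 read 8.39 and 8.07 in Ramos against 9.94, 9.93 and 9.99 in KMH2 control, 3.30-fold lower (-1.72 ± 0.09, limma adjusted p = 1.65e-06). NIP7, an RNA-binding factor of large subunit maturation, read 10.66 and 10.23 against 11.90, 11.84 and 11.79, which was 2.64-fold lower (-1.40 ± 0.12, adjusted p = 2.14e-05). POLR1C read 8.76 and 8.64 against 7.74, 7.50 and 7.61, a higher level by 1.09 ± 0.09 (adjusted p = 1.55e-05). In all 3 genes both Ramos arrays stood clear of every control array. GAR1 was 1.99-fold lower (adjusted p = 0.000332), UTP4 1.92-fold (1.94e-05) and UTP14A 1.85-fold (9.3e-05). RRP12 was 2.49-fold lower (-1.31 ± 0.26, adjusted p = 0.00349), with 8.85 on one Ramos array and 7.74 on the other.

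Further lower calls were BOP1 (-0.92, limma adjusted p = 0.00477), NOP16 (-0.93, 0.0106), NOB1 (-0.42, 0.0124), POLR1B (-0.86, 0.015) and DKC1 (-0.42, 0.0239), and the other higher calls were BYSL (0.47, 0.00114) and UBTF (0.43, 0.0396). NOB1, which had risen after glucosamine, read 10.05 and 10.38 in Ramos, below all controls. DKC1 lost its call without control replicate 1, 2 or 3 (0.0614, 0.0644 and 0.0597) or Ramos replicate 2 (0.0715). POLR1B lost it when the fit used the control and Ramos arrays alone (0.0564). UBTF lost it without control replicate 1, 2 or 3 (0.0643, 0.107 and 0.0984) or Ramos replicate 1 (0.148).

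The Ramos arrays stood on opposite sides of KMH2 control for 14 of these genes, with replicate 1 above and replicate 2 below the control mean, as for 1964 of all 17958 genes. The median of the 39 relative to the control mean was 0.11 on replicate 1, with 23 genes above, a share close to that of all genes, of which 10702 were above. On replicate 2 it was -0.43, with 9 of the 39 above and 30 below, while 10304 of all genes were above. With replicate 1 as the sole Ramos array, assumed to vary like the other groups, limma called 17 of the genes higher (24.5% of all genes) and 10 lower (21.8% of all genes). With replicate 2 alone it called 3 higher (24.7% of all genes) and 24 lower (24.3% of all genes). The genes higher with replicate 1 alone included POLR1A (0.28, adjusted p = 0.0130) and WDR12 (0.39, adjusted p = 0.00281), and those lower with replicate 2 alone included UTP15 (-0.31, adjusted p = 0.0185).

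**Figure D4:**
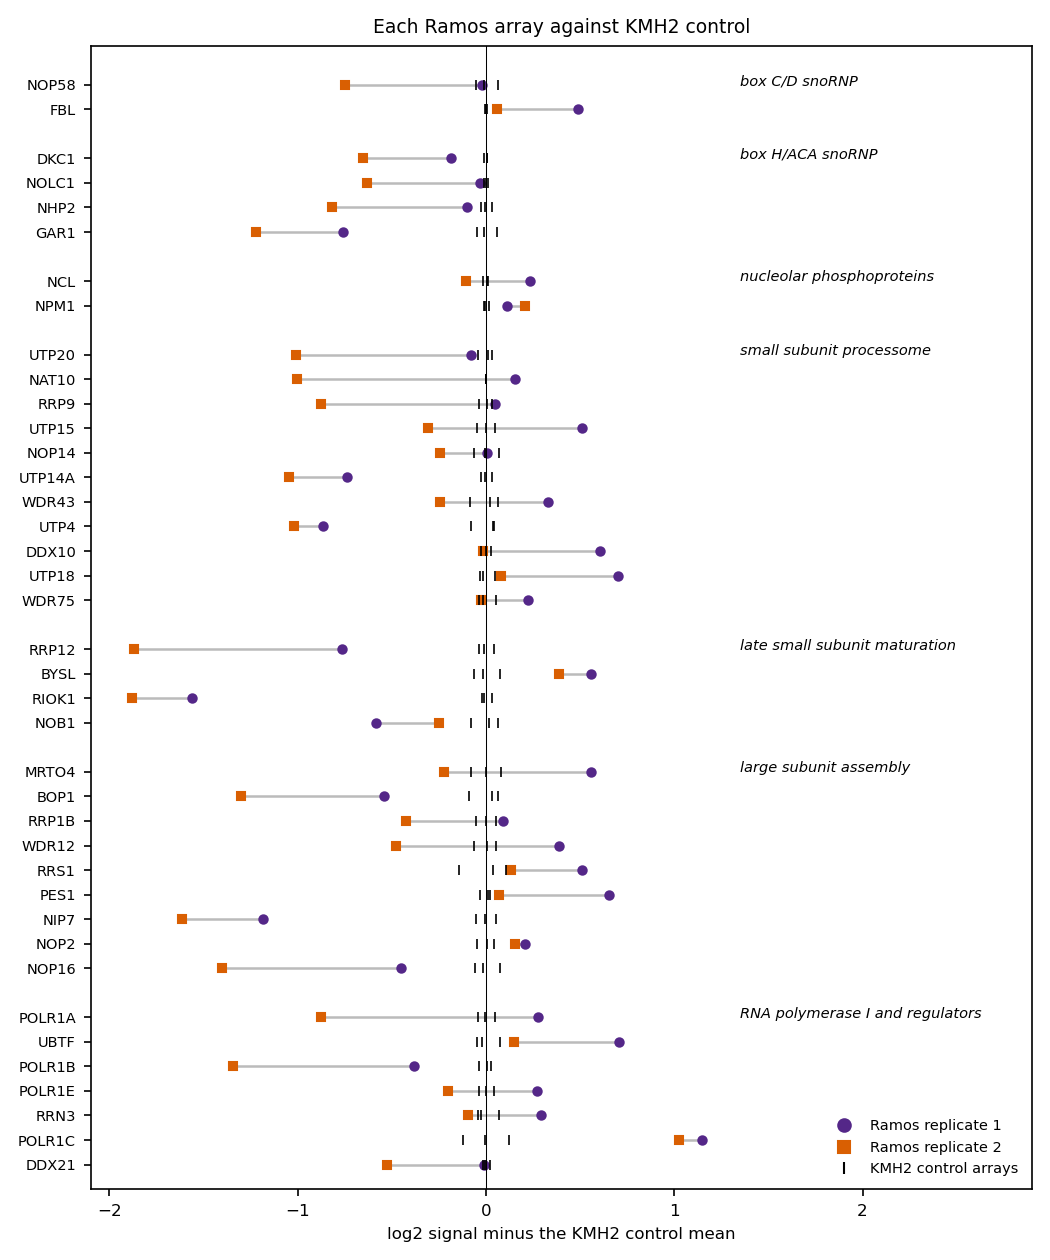
Log2 signal minus the KMH2 control mean for Ramos replicate 1 (circles) and replicate 2 (squares) for each of the 39 genes by role, with the 3 control arrays as ticks and 0 at their mean. Replicate 2 lies to the left of replicate 1 for all genes except NOB1 and NPM1.

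Ramos replicate 2 was lower than replicate 1 for 37 of the 39 genes, whereas 9337 of all 17958 genes were lower. With 1 array on each side there is no test, and a gene was counted when it differed by at least 1.5-fold. By that count 16 genes were lower (41.0%), against 5.98% of all genes, and 0 were higher, against 5.10%. The median difference, replicate 2 minus replicate 1, was -0.52 against -0.01 for all genes. NAT10 read 10.04 on replicate 1 and 8.88 on replicate 2, and POLR1A 9.05 and 7.89, each 2.23-fold lower. RRP12 was 2.15-fold lower and UTP20, at 9.05 and 8.12, 1.91-fold. Further processome genes past the fold included RRP9 (8.83 and 7.91) and UTP15 (9.30 and 8.48). The 2 exceptions were NOB1, higher by 0.33 on replicate 2, and NPM1, higher by 0.10.

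By role the median differences between the Ramos arrays were -0.62 for the small subunit processome, -0.58 for box C/D and for large subunit genes, -0.54 for box H/ACA, -0.52 for RNA polymerase I genes, -0.25 for late small subunit factors and -0.12 for the phosphoproteins. The other pathway genes showed the same sign, with 109 of 120 lower on replicate 2, 43 of them (35.8%) by at least 1.5-fold and 0 higher by that fold, with a median of -0.42. Among them, the 9 other RNA polymerase I genes had a median of -0.19, with 3 higher on replicate 2, and RNA polymerase III genes had a median of -0.07. The box C/D and phosphoprotein medians above rest on 2 genes each. Any 2 arrays of the same KMH2 group differed by that fold in 0.0223% to 1.77% of genes, and the Ramos arrays in 11.1%.

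The glucosamine difference in KMH2 and the difference between the Ramos arrays share no array, so they can be set side by side. Of the 20 genes that fell after glucosamine, all 20 were lower on Ramos replicate 2, 11 by at least 1.5-fold, with a median of -0.66. Of the 16 that did not pass, 15 were lower on replicate 2, 5 by that fold, with a median of -0.45, and of the 3 that rose, 2 were lower. Across the 39 genes Pearson's r between the differences was 0.615 and Spearman's rho 0.567, and across all 17958 genes 0.446 and 0.382. These are descriptions across genes, which are not independent replicates and share the arrays on each axis.

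Read by glucosamine call, the E-box hexamer stood in 8 of 14 fallers with a promoter window in the table (57.1%), in 6 of 15 genes that did not pass and in 1 of 3 that rose, DDX21. These shares rest on few genes and were not tested.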

How the data were processed

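Total RNA was labelled with biotin and hybridised to Affymetrix HuGene-1_1-st-v1 array strips, per the labels' protocols. The values were log2 signals of 33297 probe sets, as deposited by the authors; the scale was read from the values. The sources used here do not give the background correction, normalization or summarization. The platform annotation of 2016 gave 19181 probe sets 1 symbol, 2055 several, and left 12061 unlisted; 19143 of the former matched RefSeq. Each gene was represented by its brightest probe set, by mean over the arrays.

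Every adjusted p came from limma (version 3.58.1, R 4.3.3), by its moderated two-sided test after lmFit and eBayes, with Benjamini-Hochberg adjustment over the 19181 probe sets and a threshold of 0.05; the fit was tested on simulated data. Glucosamine was tested on the 6 KMH2 arrays, Ramos against control on all 8. The number of arrays limits the precision. All members were named, and of each other pathway list the gene that fell most and the one that rose most. Members and lists were chosen with earlier results of these data known.

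Deviations from the group means correlated at 0.457, 0.234 and 0.231 between same-numbered KMH2 arrays, and from -0.369 to 0.252 across numbers. The 0.252 was between control replicate 2 and glucosamine replicate 3, and it exceeded the same-number values of 0.234 and 0.231. The correlations therefore did not settle whether the numbers pair the samples. The fits used no pairing except where a replicate block is named.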

Additional observations from a re-analysis of the deposited data

How the results depend on the processing

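Of 23 members called after glucosamine, UTP20, NOP14, UBTF and NOB1 kept their call under all 16 alternatives and 0 reversed; 13 lost it solely where all 8 arrays shared the spread (3 lower, 1 higher). Of 16 uncalled members 5 passed under some alternative: FBL, UTP18, DDX10 and PES1 with array weights, FBL and POLR1B with a trended robust fit, and POLR1B without dim probe sets, at adjusted p of 0.0294 to 0.0461. With a replicate block, 19 were lower and 2 higher, and apart from NOLC1 and DDX21 it changed no member's call. With all probe sets tested, NOLC1, UTP4, WDR43, RRS1 and DDX21 lost their calls (limma adjusted p = 0.0516 to 0.0724). Quantile normalization lost NOLC1 (0.0507) and RRS1 (0.0508), and centring the arrays on their medians lost DDX21 (0.0990). Leaving out 1 array gave 15 to 18 lower and 2 higher. The RNA polymerase III median turned to 0.00342 with array weights and 0.0129 without both arrays of number 1, and ran from -0.0637 to 0.0237 when 1 array was left out.

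Of 14 Ramos calls, 11 held under every alternative and DKC1, UBTF and POLR1B did not. Each alternative still used a spread shared between groups. Leaving out 1 array gave 10 to 24 lower and 2 to 17 higher. Between leaving out Ramos replicate 1 and replicate 2, medians ran from -0.43 to 0.11 for the members, -0.54 to 0.011 for further small subunit genes, -0.34 to 0.047 for large subunit, -0.29 to 0.16 for snoRNP and -0.71 to 0.17 for exosome genes. Differences ran likewise from -0.31 to 0.51 for UTP15, -0.24 to 0.33 for WDR43, -0.48 to 0.39 for WDR12, -0.88 to 0.28 for POLR1A and -0.20 to 0.27 for POLR1E. The cause was not tested. Signals near background have their folds compressed to an unknown extent.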

Other observations

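Some members are chromosomal neighbours, and this was looked at after their values were seen. In the RefSeq order of GRCh38.p14, UTP4, NIP7 and NOB1 lie within 622 kb on chromosome 16, and all 3 were lower in Ramos than in KMH2 control. Of 7 other measured genes between them, 6 were lower in Ramos and 0 higher (limma, adjusted p under 0.05). Of all genes 21.6% were lower and 22.6% higher. The median difference of the 7 was -0.53 on the log2 scale, against 0.06 for all genes. The lowest of the 7 was VPS4A, an ATPase of membrane scission, at -1.04, and TMED6 did not pass.

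BYSL and POLR1C, both higher in Ramos, lie within 1650 kb on chromosome 6. Of 35 other measured genes between them 13 were higher (22.6% of all genes were), 4 lower (21.6% of all genes were) and 18 did not pass. Their median was 0.15, against 0.06 for all genes. Copy number was not measured in these arrays.

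Further probe sets of the same gene were available for 3 members. The 3 other NPM1 probe sets differed by 0.06, 0.06 and 0.02 after glucosamine, the last from a dim probe set at 4.30 in control, and none passed. In Ramos the brighter pair passed, each higher by 0.21 (limma adjusted p = 0.0260 and 0.0271), where the probe set used did not (0.0656). A further NHP2 probe set differed by -0.03 after glucosamine, and by -0.43 in Ramos (limma adjusted p = 0.0236), where the probe set used did not pass (0.0642). From Ramos replicate 1 to replicate 2 this further probe set differed by -0.48, short of 1.5-fold. The NHP2 probe set used differed by -0.72, past that fold.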
